A study of Homo sapiens with 6 samples.

Results

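Accessible sites in gene deserts were examined in 6 bulk ATAC-seq libraries of GM12878, a human lymphoblastoid line made by transforming B cells with Epstein-Barr virus. Peaks of the 6 libraries that overlapped or adjoined were merged into regions. A region was kept where it lay on an autosome, overlapped no body of a protein-coding gene and was more than 100 kb from every start of a protein-coding transcript (GENCODE version 44, hg19). This rule gave 10718 desert regions of 54338 autosomal regions (19.7%). It used only the position of the peaks, so their strength, their recurrence between libraries and their sequence were not fixed by it.

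All libraries came from GM12878 cells fixed with formaldehyde and transposed with Tn5, an enzyme that inserts sequencing adapters where DNA is open. They differed in how the crosslinks were reversed. Old-buffer libraries were reverse crosslinked with SDS and purified, new-buffer purified libraries were reverse crosslinked without SDS and purified, and new-buffer unpurified libraries were amplified directly in the SDS-free mixture, with 2 replicates of each of the 3 protocols. The study compared them to learn whether the SDS-free buffer gives libraries of similar quality. The labels do not say whether replicates came from separate cultures, so their spread may be technical, and GM12878 is 1 line from 1 donor.

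Gene deserts are long stretches of the genome without protein-coding genes. Some hold enhancers, which are short elements bound by transcription factors that act on promoters far away, and others are largely repeats. Developmental regulators and genes of neural adhesion are often neighbours of large deserts. Open elements that bind insulator proteins such as CTCF, starts of long noncoding RNAs (lncRNAs) and stray promoters also occur there. The nearest coding gene is given below as a landmark, and no target gene was measured.

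The 300 bases around the summits of 6 desert regions are given as examples of their sequence. These 6 were picked by rank among clusters, strength, distance or flanking genes, and do not stand for all desert regions. They comprise a region of the cluster with the most members on chromosome 16, the strongest region with no repeated words by the count described below, a region of the cluster near TOMM20, 1 of the 3 regions farthest from any coding start, and the strongest regions of the deserts beside TENM3 and EFNA5. Each is the forward strand of hg19, written 5′ to 3′, and capitals mark matches to the motifs searched on either strand.
Chromosome 16 cluster, chr16:46403537-46403836: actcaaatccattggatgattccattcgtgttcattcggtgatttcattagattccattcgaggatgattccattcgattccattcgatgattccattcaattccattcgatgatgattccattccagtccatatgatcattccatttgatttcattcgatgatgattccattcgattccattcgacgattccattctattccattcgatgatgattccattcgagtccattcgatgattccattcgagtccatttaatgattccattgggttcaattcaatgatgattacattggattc
FIGN to GRB14 desert, chr2:164871917-164872216: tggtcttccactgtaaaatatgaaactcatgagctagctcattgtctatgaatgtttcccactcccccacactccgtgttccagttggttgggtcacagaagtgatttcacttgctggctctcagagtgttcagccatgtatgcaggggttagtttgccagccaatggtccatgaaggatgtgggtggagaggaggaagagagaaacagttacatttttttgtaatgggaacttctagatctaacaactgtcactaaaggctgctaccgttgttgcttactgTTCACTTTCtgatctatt
IRF2BP2 to TOMM20 cluster, chr1:235147569-235147868: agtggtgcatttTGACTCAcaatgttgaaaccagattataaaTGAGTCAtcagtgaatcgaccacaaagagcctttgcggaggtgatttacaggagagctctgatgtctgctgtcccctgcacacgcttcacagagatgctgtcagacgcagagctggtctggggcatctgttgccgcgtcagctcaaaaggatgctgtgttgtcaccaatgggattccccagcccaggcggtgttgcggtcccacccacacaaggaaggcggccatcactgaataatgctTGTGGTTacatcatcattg
PCDH7 to ARAP2 desert, chr4:33186341-33186640: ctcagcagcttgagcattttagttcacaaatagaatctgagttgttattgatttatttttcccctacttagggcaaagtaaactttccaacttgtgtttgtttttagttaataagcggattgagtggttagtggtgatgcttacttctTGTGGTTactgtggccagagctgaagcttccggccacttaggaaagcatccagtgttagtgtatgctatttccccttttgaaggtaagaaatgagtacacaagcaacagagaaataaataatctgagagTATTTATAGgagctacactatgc
AGA to TENM3 desert, chr4:182940188-182940487: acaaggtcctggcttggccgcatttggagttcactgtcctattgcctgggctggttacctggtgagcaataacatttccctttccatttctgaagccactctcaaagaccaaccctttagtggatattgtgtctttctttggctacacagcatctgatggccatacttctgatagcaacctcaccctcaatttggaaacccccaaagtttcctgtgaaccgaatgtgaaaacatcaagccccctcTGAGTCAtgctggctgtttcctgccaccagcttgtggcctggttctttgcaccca
NUDT12 to EFNA5 desert, chr5:103425096-103425395: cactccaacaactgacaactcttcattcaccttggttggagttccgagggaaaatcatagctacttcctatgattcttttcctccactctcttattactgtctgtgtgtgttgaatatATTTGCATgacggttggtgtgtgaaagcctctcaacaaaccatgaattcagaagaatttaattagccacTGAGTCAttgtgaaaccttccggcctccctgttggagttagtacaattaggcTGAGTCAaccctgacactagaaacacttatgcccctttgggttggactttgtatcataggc
The chromosome 16 window held the 5-base unit CATTC or its complement GAATG 17 times. The TOMM20 cluster window held the AP-1 motif at 2 places, 138 and 108 bases before the summit. The TENM3 window held 1 AP-1 match, starting 95 bases after the summit, and the EFNA5 window held 2, starting 37 and 89 bases after it.

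The space that met the rule covered 801 Mb, or 29.8% of the autosomal sequence. It held 13.4 regions per Mb, against 23.2 per Mb elsewhere on the autosomes. Chromosome 2 had the most desert regions, 1224, followed by chromosome 4 with 1123. On chromosome 13, 31.9% of all regions were desert regions, and 45.5% of its sequence met the rule. Chromosome 19, which is dense in genes, had 11 desert regions, and chromosome 22 had 4. Per Mb of desert sequence, chromosome 3 held 17.1 and chromosome 22 held 0.786.

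Of the 10718 desert regions, 3544 (33.1%) lay 100 to 200 kb from the nearest coding start, 4110 (38.3%) lay 200 to 500 kb away, 2053 (19.2%) lay 500 to 1000 kb away and 1011 (9.43%) lay farther. The region just past the limit was 100004 bp from ADAMTS16, at chr5:5039932-5040439, and was called in 6 libraries with 11 to 22 reads at its summit. The one just short of it was 99987 bp from DAD1, at chr14:22957419-22958076, and was also called in 6 libraries, with 31 to 44 reads.

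By the number of libraries that called them, the largest groups of desert regions were those called once and those called in all 6. A single library called 3590 of them (33.5%), and all 6 called 2813 (26.2%; 95% Wilson interval 25.4 to 27.1, counting error only). Between them, 1522 were called in 2 libraries, 961 in 3, 894 in 4 and 938 in 5. The other distal regions, which are those more than 1 kb from every coding start but inside a gene or within 100 kb of a start, had nearly the same profile, with 31.1% called once and 27.4% called in all 6 of 31136. Promoter regions, within 1 kb of a coding start, differed from both, with 12.4% called once and 64.2% called in all 6 of 12484.

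**Figure D1:**
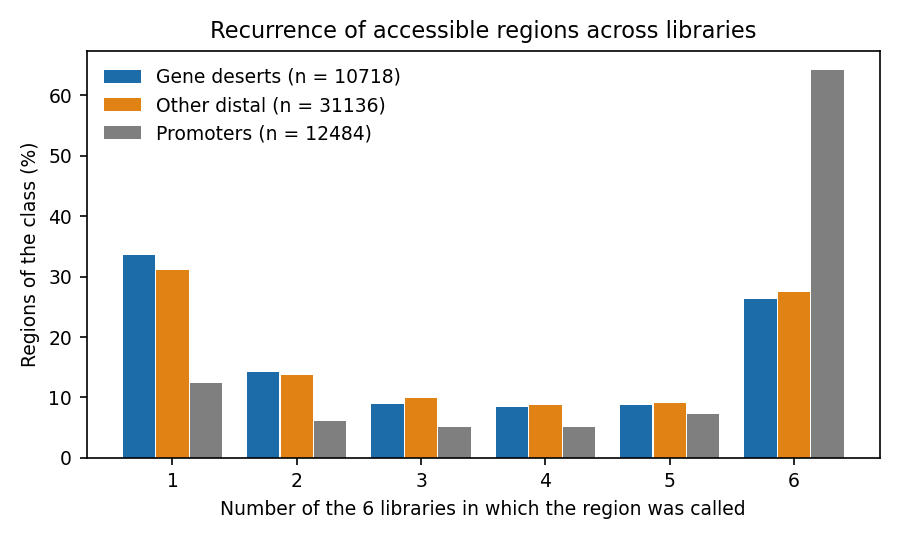
Share of the regions of a class (y axis, %) by the number of libraries that called them (x axis), for desert, other distal and promoter regions. The bars of desert and other distal regions are nearly level at every number, with 26.2% and 27.4% at 6 libraries, while promoter regions reach 64.2% there.

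Strength was compared as the summit pileup, the number of reads stacked at a peak's highest point, which was solved from the fold enrichment and p value of each peak. Within the libraries, the median summit pileup of desert regions was 20, 19, 20, 18, 18 and 18 reads, and that of other distal regions was 20, 20, 20, 18, 19 and 18 reads (unpurified, old buffer, purified, replicates 1 and 2 of each). The mean difference was -0.333 ± 0.516 reads (SD, n = 6), with p = 0.5 in an exact two-sided sign-flip test over libraries. Desert peaks were narrower in 6 of 6 libraries, with a median of 358 ± 11.4 bp against 363 ± 12.4 bp, a difference of -4.83 ± 2.79 bp (exact sign-flip p = 0.0312, the smallest that 6 libraries allow, and 0.0938 after adjustment over 3 tests). The share of a library's desert regions that all 6 libraries called was 49.3% ± 6.36, against 49.9% ± 5.95 for its other distal regions (difference -0.583 ± 1.22 percentage points, exact sign-flip p = 0.281, adjusted 0.422). The regions called in all 6 were the same 2813 desert and 8539 other distal ones in every library, and only the totals differed. The 6 share differences are therefore not independent measures of recurrence, and their p value cannot be read as one. This limit holds for the share under the alternatives too. None of the 3 differences passed the threshold after adjustment. With a limit of 200 kb in place of 100 kb, the width difference became -8.67 bp and the share difference -1.85 points, both with an adjusted exact sign-flip p of 0.0469. With a limit of 50 kb the width difference was -2.17 bp (exact sign-flip p = 0.188), with equal numbers of peaks -1.33 bp (p = 0.312), and with a −log10 q of at least 5 it was -1.0 bp (p = 0.625). The share difference turned positive under the same 3 alternatives. Promoter peaks had a median pileup of 27 to 32 reads.

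Distance within the deserts went with little change in recurrence. All 6 libraries called 28.5% of the regions 100 to 200 kb from a coding start, 25.5% of those 200 to 500 kb away, 24.2% of those 500 to 1000 kb away and 25.7% of those beyond. Median width was 396, 380, 368 and 380 bp in the same order of distance. The 3 regions called in all 6 libraries that were farthest from any coding start lay together between PCDH7, which codes for a protocadherin, and ARAP2, a regulator of small GTPases. At chr4:33748422-33749463, 2463 kb from the start of ARAP2, the pileup was 29 and 26 reads in the unpurified, 30 and 24 in the old-buffer and 28 and 31 in the purified libraries. At chr4:33188643-33189188 it was 31 and 22, 33 and 20, and 30 and 21 reads in the same order. At chr4:33186256-33186811 it was 40 and 34, 39 and 37, and 35 and 28 reads. The protocols overlapped at the first 2, and at the last one both purified libraries were below both old-buffer libraries.

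Protocols were compared first by the number of desert regions that a library called. The old-buffer libraries called 6599 and 5783 (6191 ± 577, SD, n = 2), the purified new-buffer libraries 6236 and 4623 (5430 ± 1141) and the unpurified new-buffer libraries 5918 and 5502 (5710 ± 294). The library with the fewest, replicate 2 of the purified new buffer, also had the lowest local background, 1.51 reads, which scales with depth and ranged up to 1.86. The other libraries did not keep this order. Replicate 2 of the unpurified new buffer had the highest background, 1.86, with 5502 desert regions, and replicate 1 of the purified new buffer had 1.58 with 6236. The groups overlapped in each pair. Desert regions made up 18.7% and 17.7% of the regions called in the old-buffer libraries, above the 17.4% and 16.4% of the purified and the 17.3% and 17.0% of the unpurified new-buffer libraries. The share was 1.30 percentage points lower with the purified and 1.05 points lower with the unpurified new buffer (exact two-sided permutation p = 0.33 for both, the smallest that 2 libraries against 2 allow, and 1 after adjustment over 6 tests). The purified and unpurified new buffer differed by 0.249 points (exact permutation p = 1). Without replicate 2 of the purified new buffer, the number of desert regions with the purified buffer was 46 higher than with the old buffer, where it had been 762 lower (exact permutation p = 1 and 0.667). The share difference of the purified from the old buffer ran from -0.799 points without replicate 2 to -1.80 without replicate 1 of the purified buffer. That of the unpurified from the old buffer ran from -0.569 points without replicate 1 to -1.53 without replicate 2 of the old buffer, and the difference in number from -70 to -888.5 in the same order.

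**Figure D2:**
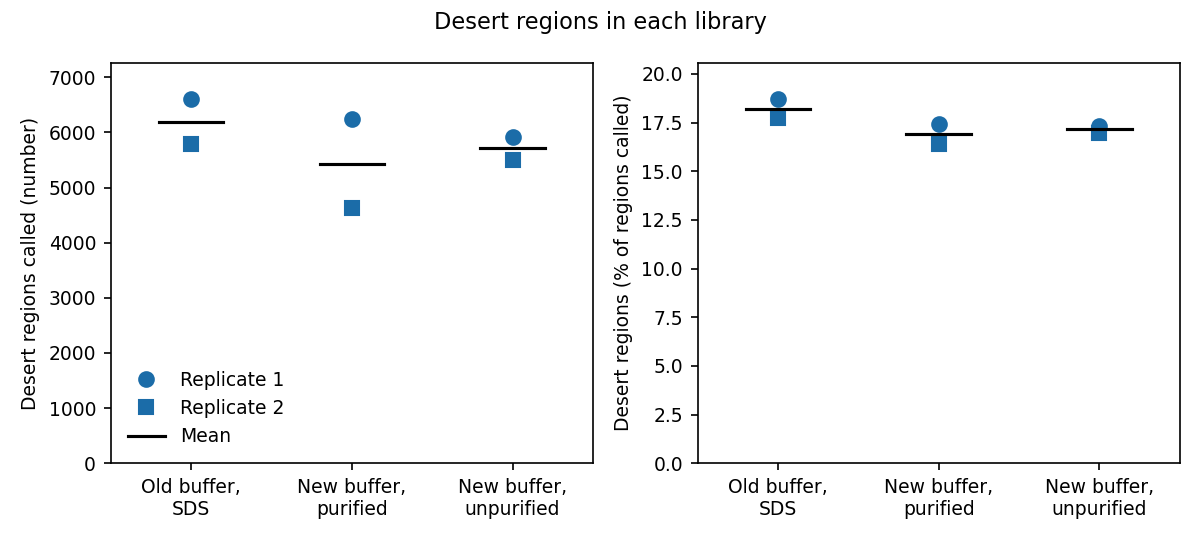
Number of desert regions called (left, y axis) and their share of all autosomal regions called (right, y axis, %) in each library by protocol (x axis). Points are libraries and lines are means of 2. Replicate 2 of the purified new buffer called the fewest (4623), and both old-buffer libraries have a higher share (18.7% and 17.7%) than the other 4.

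The summit pileups of the 2813 desert regions called in all 6 libraries were then compared between protocols on the log2 scale with limma, fitted on all 19364 such autosomal regions. No region passed an adjusted p of 0.05 in any of the 3 comparisons, so 0% of all regions and 0 desert regions were called. At an unadjusted p under 0.05 there were 210 desert regions (7.47%, against 7.41% of all regions) for the unpurified new buffer against the old, 238 (8.46%, against 7.65%) for the purified new buffer against the old, and 137 (4.87%, against 4.73%) for unpurified against purified. For the first comparison the log2 differences of 9 in 10 desert regions lay between -0.49 and 0.37, with a median of -0.04, against 0.04 over all regions. For the second they lay between -0.52 and 0.36, with a median of -0.07, against 0.03. The strongest region with no repeated word, chr2:164871713-164872743, differed by 0.05 on the log2 scale between the unpurified new and the old buffer (95% interval -0.37 to 0.48, limma adjusted p = 0.966). The unadjusted 95% interval of a desert region reached 0.468 to either side of its log2 difference in the median. Smaller changes could not be told from none even before adjustment. After adjustment over 19364 regions, larger changes could be missed too, so the absence of calls does not exclude them.

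Some desert regions had a peak in each replicate of 1 protocol but in no replicate of the other. Called with the old buffer only, there were 349 against the unpurified new buffer (3.63% of desert regions called in these 4 libraries, against 2.8% of all regions) and 430 against the purified new buffer (4.48%, against 3.2%). In the other direction there were 174 (1.81%, against 2.42%) with the unpurified and 151 (1.57%, against 1.83%) with the purified new buffer. Between the new buffers, 283 (3.12%, against 2.7%) were called only without and 172 (1.90%, against 1.74%) only with purification. The strongest called with the old and not with the unpurified new buffer was chr10:42392566-42392861, with 71 and 68 reads, within 1 Mb of a large assembly gap. It was not called in the other 4 libraries.

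The strongest called with the old and not with the purified new buffer, chr17:51183403-51183798, was the only desert region in sequence similar to the mitochondrial genome. It overlaps MTCO1P40, a pseudogene of a mitochondrial oxidase subunit, between CA10 and KIF2B. Its pileup was 69 and 75 reads with the old buffer and 13 and 20 with the unpurified new buffer, and neither purified library called it. The authors removed mitochondrial reads before calling peaks, and their methods state that peaks were also filtered for mitochondrial sequence inserted in nuclear DNA. The part of mitochondrial reads here, and whether the deposited lists carry that filter, were not tested. Another 3 regions found in this way had 19 to 31 reads in the libraries of the protocol that called them. They lie near NUDT12, near PSAT1 and between PCDH7 and ARAP2.

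The strongest desert regions were more often in repeated sequence than all those called in all 6 libraries, though most were not. For each region, 31-base words taken every 10 bases from the 300-base summit window were counted over the genome without chromosome Y, and a window was called multi-copy where at least 50% of its words occurred more than once. This held for 374 desert regions (3.49%), 2.42% of other distal and 0.865% of promoter regions. Among desert regions called in all 6 libraries it held for 107 of 2813, but for 13 of the 100 with the highest mean −log10 q and 6 of the first 20. Of the same 20, 8 lay within 1 Mb of a run of unknown bases of at least 1 Mb, such as a centromere. Of the 2813 called in all 6 libraries 81 did, and of all 10718 desert regions 241. Highest by mean −log10 q among the regions near such a run were chr1:121484045-121485540, with 347 to 363 reads, and chr7:61968511-61969917, with 310 to 332 reads. Both lie beside a centromere gap, and 55.6% and 81.5% of their words were repeated.

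Away from such gaps, the highest mean −log10 q was at chr5:71146588-71147096 between CARTPT, a neuropeptide gene, and MAP1B, a neuronal microtubule protein, with 154 to 163 reads and 70.4% of words repeated. Next came chr16:33962883-33963585, with 160 to 184 reads and 33.3% repeated words, 1841 bp from RNA5-8SP2, a pseudogene of 5.8S ribosomal RNA. At chr9:66493774-66494684, over the pseudogene PTGER4P2, the pileup was 92 to 125 reads, and 44.4% of words were repeated. The fourth, chr2:164871713-164872743, lies in a lncRNA gene (ENSG00000237844) 279 kb from FIGN, an ATPase that severs microtubules. None of its words was repeated. Its pileup was 139 and 118 reads in the unpurified, 118 and 116 in the old-buffer and 129 and 108 in the purified libraries, so the protocols overlapped. The fifth, chr9:68413002-68414732, overlaps DUX4L50, a DUX4-like pseudogene, and had 166 to 181 reads. The sixth, chr3:75483775-75485328, overlaps the pseudogene FAM86DP and had 119 to 143 reads, with 40.7% of words repeated.

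Many desert regions were in genes that code for no protein. A gene of any type held 4101 (38.3%), and a lncRNA gene held 3958 (36.9%), of which 1076 (27.2%) were called in all 6 libraries. Outside every gene, 25.6% of 6617 were. The 353 within 1 kb of the start of a lncRNA gene were called in all 6 libraries in 43.3% of cases, and the 566 in a lncRNA exon in 44.3%. MicroRNA genes held 12, of which 8 were called in all 6. Segments of immunoglobulin and T-cell receptor genes, which the annotation does not list as protein-coding genes, held 15. In all, 73 lay within 100 kb of such segments, and 13 of them (17.8%) were called in all 6. A group of 18 was nearest to the immunoglobulin heavy-chain locus (chr14:106167337-107281194), with 6 called in all 6 libraries and 7 in only 1. The 22 nearest to segments of the T-cell receptor alpha and delta genes, on the same chromosome, included 4 called in all 6.

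Desert regions were often close to each other. With gaps of up to 20 kb, 4762 stood alone (44.4%), 1407 pairs formed, and 3142 (29.3%) fell into 827 clusters of at least 3. Members of clusters of at least 3 were called in all 6 libraries in 32.2% of cases and in a single library in 26.6%, against 22.5% and 37.6% of those that stood alone. In clusters of 5 or more, 35.7% were called in all 6. The nearest region of any class was 15.3 kb away in the median for desert regions, 9.12 kb for other distal and 10.8 kb for promoter regions. The number of clusters was 441 with gaps of up to 10 kb and 1329 with gaps of up to 50 kb.

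The clusters with the most regions were unlike each other. The first, chr16:46386051-46435664, held 15 regions in 49.6 kb beside the centromere gap of chromosome 16. Of these, 14 had multi-copy windows and 11 held the unit CATTC or GAATG at least 10 times in 300 bases, which was so in 33 of all desert, 4 of other distal and none of the promoter regions. This repeated unit is known from satellite DNA near centromeres. All 6 libraries called 10 of them, with a mean pileup per region of 28.2 to 153 reads. Its strongest by −log10 q per the naming rule, chr16:46403433-46403944, had 114 and 131 reads in the unpurified, 121 and 141 in the old-buffer and 105 and 110 in the purified libraries.

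The second cluster, chr8:128987864-129116120, held 15 regions over 128 kb, all in PVT1, a lncRNA gene beside the proto-oncogene MYC, and none of them multi-copy. All 6 libraries called 7. The strongest, chr8:129005037-129005848, lies 255 kb from MYC and had 59 to 71 reads, and 2 others reached means of 48 and 38.3 reads, while the other 12 had means of 15 to 24.2. The third, chr1:235090953-235184243, held 13 regions in 93.3 kb between IRF2BP2, a transcriptional corepressor, and TOMM20, part of the mitochondrial import machinery. All 6 libraries called 5, and none of the 13 was multi-copy. The strongest, chr1:235147271-235148148, had 67 and 60 reads in the unpurified, 50 and 44 in the old-buffer and 61 and 50 in the purified libraries. The unpurified libraries were above the old-buffer ones there, by 0.36 on the log2 scale (95% interval -0.05 to 0.77, limma adjusted p = 0.698).

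**Figure D3:**
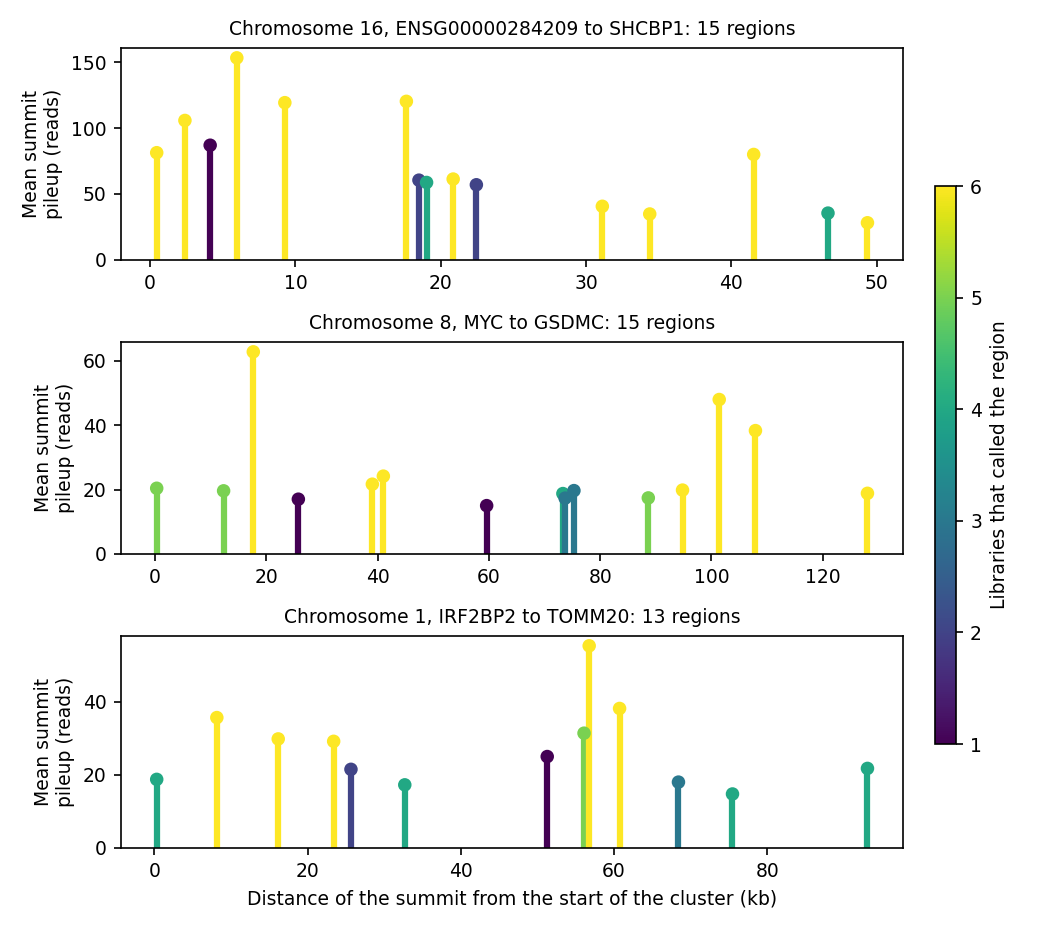
Mean summit pileup over the libraries that called a region (y axis, reads) against the distance of its summit from the start of the cluster (x axis, kb), for the 3 clusters with the most desert regions. Colour gives the number of libraries. In the MYC to GSDMC cluster 3 regions stand above 30 reads and in the chromosome 16 cluster 14 of 15 do.

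Desert regions fell between 1342 pairs of neighbouring coding genes, of 1923 pairs with any space that met the rule. In 884 pairs at least 1 region was called in all 6 libraries. The median was 4 desert regions per pair, and 137 pairs with at least 20 held 40.9% of all. Most lay between AGA, a lysosomal enzyme, and TENM3, a teneurin of neuronal adhesion, with 83 in 4.50 Mb of desert and 24 called in all 6. KHDRBS3, an RNA-binding protein, and FAM135B flanked 54, with 21 in all 6. NUDT12, a nucleotide hydrolase, and EFNA5, an ephrin ligand, flanked 65, with 17 in all 6. AADAT, an aminotransferase, and GALNTL6 flanked only 29, but 17 of them (58.6%) were called in all 6. The next 6 pairs by this count, with 15 or 16 each and ties ordered by all their desert regions, were PLA2G4A to BRINP3, NCAM2 to MRPL39, PCDH7 to ARAP2, CTNNA2 to SUCLG1, MYC to GSDMC and MCTP2 to NR2F2. ADGRL2 to TTLL7 also had 15, of 39. Per Mb, the desert between RNF144A and ID2 was denser than all of these, with 51 regions in 1.48 Mb, or 34.4 per Mb, of which 14 were called in all 6. It was not the densest. The shorter desert between BTG1 and PLEKHG7 held 22 regions in 0.357 Mb, or 61.6 per Mb, of which 12 were called in all 6. Both pairs were named after their values were seen.

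**Figure D4:**
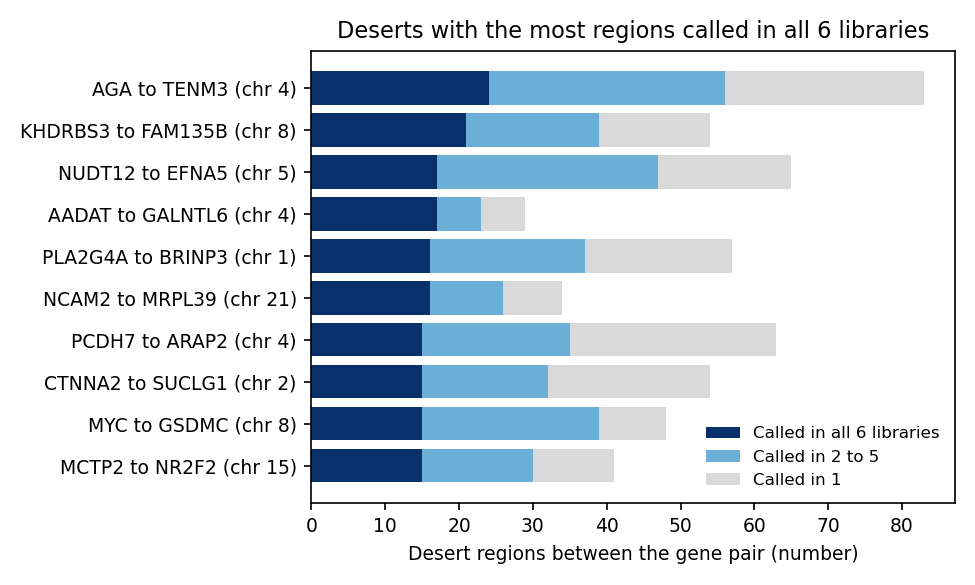
Desert regions between a pair of neighbouring coding genes (x axis, number), split by how many libraries called them, for the 10 pairs with the most called in all 6 (ties at 15 were ordered by the total, which leaves out ADGRL2 to TTLL7, with 15 of 39). AGA to TENM3 has 24 called in all 6 and 83 in all, and AADAT to GALNTL6 has 17 of 29.

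The strongest regions of the first 4 pairs were called in all 6 libraries with no multi-copy window. Beside TENM3, chr4:182939848-182940926 in the antisense lncRNA TENM3-AS1 had 100 and 85 reads in the unpurified, 73 and 84 in the old-buffer and 91 and 74 in the purified libraries. In the KHDRBS3 desert, chr8:137506623-137507374 had 54 and 53, 50 and 48, and 43 and 43 reads in the same order, so the 3 protocols did not overlap there. In the lncRNA NIHCOLE between NUDT12 and EFNA5, chr5:103424870-103425792 had 74 and 69, 68 and 56, and 62 and 55 reads. Beside GALNTL6, chr4:172560478-172561279 had 68 and 66, 62 and 61, and 59 and 52 reads, again without overlap. Neither was called by limma. These pileups were not scaled for depth, and the lowest local background was 1.76 and 1.86 reads in the unpurified, 1.74 and 1.52 in the old-buffer and 1.58 and 1.51 in the purified libraries.

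Of the 3179 coding genes that border desert space, 1546 (48.6%) flanked a region called in all 6 libraries, which is 8.04% of all 19222 coding gene names. In a list of 49 transcription regulators of B cells, 25 border desert space and 20 flanked such a region. MYC flanked 15 of them, and ID2, an inhibitor of helix-loop-helix factors, MEF2C, a factor downstream of the B-cell receptor, and ZEB2, a zinc finger repressor, flanked 14 each. ETS1 and TOX flanked 6 each, FOXO1, JUN and KLF6 5 each, and BCL11A and TCF4 4 each. IKZF2, IRF2, PRDM1 and SATB1 flanked 3 each, and BACH2 and MAF 2 each. EBF1 and PAX5, which define B-cell identity, flanked 1 each, as did IRF8.

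In a list of 59 genes of B-cell surface, signalling and survival, 57 are autosomal, 14 border desert space and 9 flanked a region called in all 6 libraries. PTPRC, the phosphatase CD45, flanked 13, DUSP10, a MAP kinase phosphatase, 10, PIK3R1, a subunit of PI3 kinase, 9, and DUSP4 7. The chemokine receptor CXCR4 and the egress receptor S1PR1 flanked 6 each, and BCL2, CD83 and SYK 1 each. Genes of other tissues flanked such regions too. Of 80 developmental transcription factors 66 border desert space and 45 flanked a region called in all 6, with 21 beside NR2F2 and 17 beside SOX9. Of 86 autosomal genes of neural adhesion and synapses 78 border desert space and 70 did, with 28 beside PCDH7, 26 beside TENM3 and 22 beside ADGRL2. As shares of the genes that border desert space these are 80.0%, 64.3%, 68.2% and 89.7%, against 48.6% of all such genes. Sizes of the deserts differ between lists, and their part in these shares was not tested.

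Among the regions beside B-cell genes, the strongest near MEF2C, chr5:88609470-88610308, had 48 and 57 reads in the unpurified, 64 and 50 in the old-buffer and 54 and 41 in the purified libraries. It lies in MEF2C-AS1, 409 kb from MEF2C. Near ID2, chr2:8548847-8549666 in LINC00299 had 34 to 56 reads. Between ZEB2 and ACVR2A, chr2:146985981-146986838 had 46 to 63 reads. It lies 1707 kb from the body of ZEB2 and 1615 kb from the start of ACVR2A, which is the nearer gene. Near PTPRC, chr1:199141966-199143005 in LINC02789 had 37 and 46, 59 and 44, and 45 and 42 reads. Between HLX and DUSP10, chr1:221219166-221220602 had 55 to 71 reads. The protocols overlapped at these 5 regions in at least 1 pair.

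In base composition, desert regions differed from promoters and less from other distal regions. The median GC content of the summit windows was 42.3% (quartiles 38 and 46.7), against 44.3% in other distal and 67.3% in promoter regions. A desert window held a median of 2 CpG dinucleotides, an other distal window 3 and a promoter window 28. At least 10 CpGs were found in 471 desert windows (4.39%, against 26.5% of all autosomal windows). This held for 6.40% of desert windows called in all 6 libraries and 3.23% of those called in 1. Other distal windows had the same order, with 12.9% and 7.95% (9.88% of all other distal). Beyond 500 kb from coding starts the median GC content of desert windows was 40.7%.

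Motifs of factors that act in B cells were searched as letters on both strands of the 300-base windows, where N is any base. They were AP-1 or BATF (TGANTCA), RUNX (TGTGGTT), IRF (GAAANTGAA), OCT (ATGCAAAT), EBF1 (CCCNNGGGA), NF-kB (GGANTTTCC), PU.1 (GAGGAAGT), MEF2 (TATTTATAG) and the CTCF consensus. No pattern contains another. At least 1 of the 9 matched in 5777 desert windows (53.9%), in 60.5% of those called in all 6 libraries and in 47.0% of those called in 1. The share in other distal windows was 53.8%.

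AP-1 matched 27.9% of desert windows called in all 6 libraries and 19.8% of those called in 1 (18.5% of all autosomal windows). RUNX matched 20.0% and 12.1% (13.3% of all), and NF-kB 5.69% and 2.56% (3.42% of all). These 3 had the same order in other distal windows, with 26.8% and 19.5% for AP-1, 18.9% and 13.2% for RUNX and 4.94% and 3.04% for NF-kB. IRF matched 9.60% and 7.72% (6.27% of all), EBF1 5.01% and 3.93% (6.70% of all), PU.1 4.23% and 3.31% (3.83% of all), OCT 4.27% and 4.46% (3.49% of all) and MEF2 0.747% and 0.474% (0.477% of all). Seen the other way, 38.2% of the 419 desert regions with an NF-kB match and 33.3% of the 1690 with a RUNX match were called in all 6 libraries, against 25.8% and 24.9% without.

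CTCF went the other way. Of the 412 desert regions with a CTCF match 16.5% were called in all 6 libraries, against 26.6% of those without, and in other distal regions it was 11.3%. It matched 2.42% of desert windows called in all 6 and 3.26% of those called in 1 (3.28% of all autosomal windows), and in other distal windows 1.65% and 5.11%. With 100-base windows the desert shares were 0.711% and 1.37%. Over all desert windows of 300 bases CTCF matched 3.84%, more than in either of these groups. The share was therefore highest in desert regions called in an intermediate number of libraries, and not in those called in 1. A match describes letters, and binding was not measured.

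**Figure D5:**
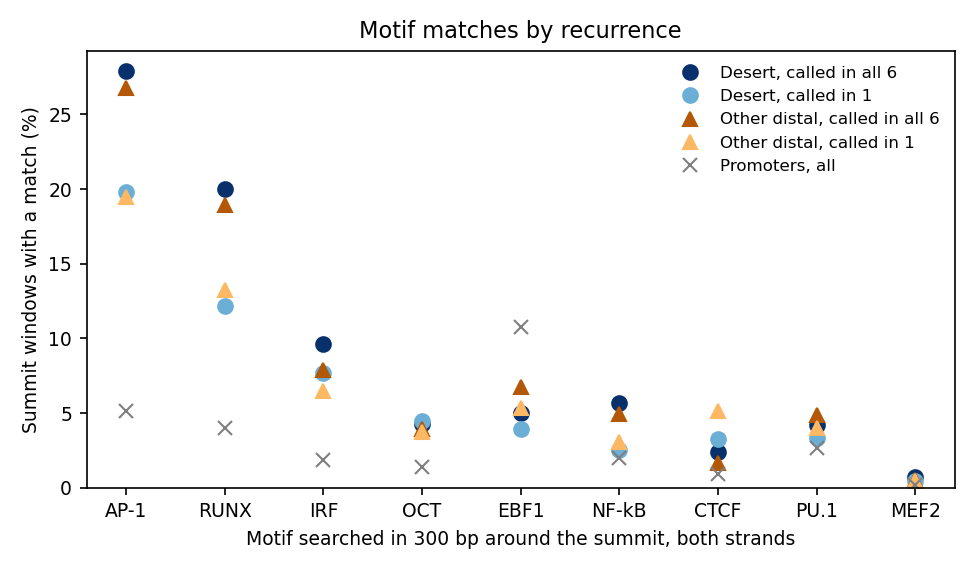
Share of summit windows with a match (y axis, %) for 9 motifs (x axis), for desert and other distal regions called in all 6 libraries or in 1, and for all promoter regions. AP-1, RUNX and NF-kB are higher in regions called in all 6 (27.9%, 20.0% and 5.69% in deserts) than in those called in 1, and CTCF is lower in both classes.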

How the data were processed

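Reads of the 6 libraries were trimmed and aligned to hg19 by the authors with Bowtie2 (2.1.0 per the submitters' processing notes, which also name Picard 1.79). Read pairs that aligned improperly or with low quality, duplicates and reads of mitochondria were discarded, and MACS2 (version not given in the sources used here) then called narrow peaks. The methods state that reads of samples of 1 condition were pooled first, but there is 1 deposited list per library, with different peaks, so each was taken as called from its own library, on which the counts of calling libraries rest. As deposited, a list gives for each peak a score (10 times the −log10 q without decimals), the fold enrichment over local background as a ratio, the −log10 p and the −log10 q. They hold no read counts. The methods also state that peaks were filtered for mitochondrial sequence inserted in nuclear DNA and for the ENCODE blacklist of regions to exclude. Whether the deposited lists carry this filter was not tested, which bears on the regions beside assembly gaps. The summit pileup and the local background were solved from fold enrichment and −log10 p, with a largest error of 0.000275 in −log10 p. Lowest backgrounds of 1.51 to 1.86 reads give relative depth only, and precision is set by the reads at a summit, which are not counts of molecules.

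An overlap of 1 bp with a peak of a library counted as a call there. Sequence similar to mitochondria was found with blastn 2.17.0 (at least 100 bp at 80% identity). Protocols were compared with exact two-sided permutation tests over libraries (6 tests adjusted together by Benjamini-Hochberg) and limma 3.58.1 in R 4.3.3 on log2 pileups centred on the library median. Desert and other distal regions were compared with exact sign-flip tests over 6 libraries. The pileup solver, the tests and limma were tested on simulated data, where limma found most of the large changes but missed most of the small ones. Versions were pandas 2.3.3, SciPy 1.17.1, NumPy 2.4.6, samtools 1.23.1 and Python 3.11.15.

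The regions, the gene lists, the tests and the alternatives were chosen with earlier results of these data known. Named were the 3 clusters with the most regions, the 6 strongest regions called in all 6 libraries away from assembly gaps and mitochondria-like sequence and the 2 strongest near them, the 3 farthest from coding starts, the strongest region specific to a protocol per pair and direction, the 10 gene pairs flanking most regions called in all 6, B-cell genes flanking such regions, and the regions on both sides of the 100 kb limit. Of these, 1 is not reported here. Alternatives were a −log10 q of at least 5, equal numbers of peaks, other rules for calling and merging, other distances, regions outside all genes, regions away from gaps or mitochondria-like sequence, other gaps between clusters, 100-base motif windows, other limma settings, each replicate left out, and libraries of the same number as a replicate block. Leaving out multi-copy windows or immunoglobulin and T-cell receptor loci was added after seeing the data.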

Additional observations from a re-analysis of the deposited data

How the results depend on the processing

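The percent of desert regions called in all 6 libraries was 27.6 with a −log10 q of at least 5, 28.5 with equal numbers of peaks, 18.8 where at least 50% of a region had to be covered and 25.1 beyond 200 kb, against 26.2. Outside genes of any type 6617 desert regions remained. The difference in the share called in all 6 libraries between desert and other distal regions turned to 0.728, 0.198, 0.823 and 0.268 percentage points with a −log10 q of at least 5, equal numbers of peaks, 50% coverage and a limit of 50 kb, and the width difference was -1.0, -1.33, -5.67 and -2.17 bp. The share difference was -1.85 beyond 200 kb and -1.27 outside all genes, and the width difference was -8.67 and -9.33 bp, all with an adjusted exact sign-flip p of 0.0469. The share differences rest on regions that all libraries have in common, so libraries are not independent in them. Clusters numbered 441, 1329 and, with only regions called in all 6, 75. With equal numbers of peaks the share of desert regions without minus with purification was -0.0593 points. The cause of these changes was not tested.

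Leaving out 1 library at a time, the number of desert regions differed by -1573 to 46 between the purified new and the old buffer and by -526 to 1094 between unpurified and purified, and the share by -0.249 to 0.750 points for the latter. The ends came from leaving out replicate 2 or replicate 1 of the purified new buffer. limma called 0 desert regions under each of its 10 alternatives, with 110 to 246 at an unadjusted p under 0.05. Libraries with the same number did not deviate together (correlations -0.03 to 0.04 over 2813 regions). With the replicate block, the numbers differed by -481, -762 and 280.5 and the shares by -1.05, -1.30 and 0.249 points (unpurified and purified against old, then unpurified against purified; exact p of 0.5 or more), and limma called 0. Leaving out multi-copy windows left 10344 desert regions, 26.2% of them called in all 6, and leaving out immunoglobulin and T-cell receptor loci left 10645 and 26.3%. Of 90 recounts of the libraries that called the 30 named regions 82 were as before. All 9 motif shares fell with 100-base windows, which hold fewer bases.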
